A study of Mus musculus with 6 samples.

Results

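The genes described here encode the protein subunits of the mitochondrial respiratory chain and its ATP synthase. They were taken from the table of 22219 gene symbols by their names (Nduf, Sdh, Uqcr, Cox4 to Cox8, Atp5 and the mitochondrial mt-Nd, mt-Co, mt-Cytb and mt-Atp genes), which gave 97 genes, and 1 further symbol was left out because it ends in -ps, the mark of a pseudogene. Of these, 73 are nuclear genes for subunits found in most tissues (35 of complex I, 4 of complex II, 8 of complex III, 11 of complex IV and 15 of complex V), 13 are encoded by mitochondrial DNA, 7 are tissue isoforms of complex IV and 4 are related genes that carry a subunit-like name. Ndufa4 was counted with complex IV, to which its protein belongs. RNA was measured in testes of mice at day 10 in 6 libraries, 3 from controls and 3 from a germ cell conditional knockout (cKO) of Eif5, made by crossing floxed Eif5 mice (Eif5 fl/fl) with Stra8-Cre mice. Eif5 encodes a translation initiation factor that promotes GTP hydrolysis by eIF2. Stra8-Cre is active in male germ cells as they leave the stem cell state, so the gene is not targeted in the somatic cells of the testis. The labels give no genotype for the controls, so effects of the Cre driver, the floxed alleles and the missing factor cannot be told apart.

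The respiratory chain passes electrons from NADH (complex I) and succinate (complex II) through coenzyme Q, complex III and cytochrome c to oxygen at complex IV, and complex V uses the proton gradient that this builds to make ATP. Most subunits are encoded in the nucleus and imported, while a small core of complexes I, III, IV and V is encoded by mitochondrial DNA, so the complexes are built from the products of both genomes. Complex IV also has subunits with isoforms that are used in particular tissues, among them forms typical of striated muscle (Cox6a2, Cox7a1, Cox8b) and forms known from testis (Cox6b2, Cox7b2, Cox8c).

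The sequences of 3 isoform pairs are shown because the rarer partner of each passed the test between cKO and control, and because they show whether reads of the partners could be told apart. They are stretches of the coding sequence from GENCODE M21 transcripts (GRCm38), 5′ to 3′, and capitals in the rarer isoform mark the bases that differ from its widespread partner.
Cox6a1: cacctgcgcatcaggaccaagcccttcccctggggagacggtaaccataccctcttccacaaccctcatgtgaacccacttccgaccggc
Cox6a2: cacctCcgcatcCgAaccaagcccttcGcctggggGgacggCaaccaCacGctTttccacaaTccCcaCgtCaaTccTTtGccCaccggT
Cox8a: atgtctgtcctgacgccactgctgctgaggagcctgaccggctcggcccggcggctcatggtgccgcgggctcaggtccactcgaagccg
Cox8c: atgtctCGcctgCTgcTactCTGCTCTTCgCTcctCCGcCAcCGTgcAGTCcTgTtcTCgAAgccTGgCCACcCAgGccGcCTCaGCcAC
Cox7b: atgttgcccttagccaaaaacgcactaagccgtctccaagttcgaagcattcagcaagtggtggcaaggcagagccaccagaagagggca
Cox7b2: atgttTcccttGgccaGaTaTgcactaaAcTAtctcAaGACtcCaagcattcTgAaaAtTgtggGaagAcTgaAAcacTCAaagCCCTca
Over the 90 bases shown, Cox6a2 differed from Cox6a1 at 19, Cox8c from Cox8a at 51 and Cox7b2 from Cox7b at 29, so that the partners were distinct in sequence.

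For 5 of the 13 mitochondrial genes, those with a near-complete annotated nuclear copy, the opposite holds. Of these, 2 are shown with their copies because they bear on how far the values of such genes can be read. A block of 7 pseudogenes on chromosome 1 of GRCm38 (chr1:24611535-24616197, minus strand) holds nuclear copies of mitochondrial DNA. The first 60 bases of mt-Nd3 and of mt-Co2 are given above those of their nuclear copies, with a capital where a copy differs.
mt-Nd3: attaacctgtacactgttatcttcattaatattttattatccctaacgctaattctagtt
Gm28438: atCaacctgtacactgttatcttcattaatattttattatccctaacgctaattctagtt
mt-Co2: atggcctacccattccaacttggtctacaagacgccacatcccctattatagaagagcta
Gm28661: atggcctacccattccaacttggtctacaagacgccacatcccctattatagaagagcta
In this stretch mt-Nd3 differed from its copy by 1 base, T3C, with positions counted from the first base of the gene, and mt-Co2 did not differ from its copy.

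The libraries held between 32555443 and 48409550 reads. Values are read counts divided by 1 size factor per library (normalised read counts), given as mean ± SD with n = 3 a group, and tests are limma's 2-sided test on log2(value + 2) with Benjamini-Hochberg adjustment over all 17570 genes that passed a filter on low counts. Genes with an adjusted p under 0.05 are termed called. The labels do not say whether each library came from its own animal, so the p-values reflect only the spread among these libraries, which may be technical. Eif5 itself stood at 11234 ± 708 in the controls and 9035 ± 515 in the cKO, lower in all 3 cKO libraries (log2 fold change -0.31, SE 0.0947, adjusted p = 0.024), a call that was lost without cKO library 1 (adjusted p = 0.13) or cKO library 2 (adjusted p = 0.0875). Among 6 germ cell markers, 4 were called lower and none higher, and their summed level was 24064 to 31594 in the controls and 14625 to 16038 in the cKO. Of 12 Sertoli cell markers 6 were called higher, with summed levels of 306754 to 436225 and 469624 to 530137, and of 7 Leydig cell markers 6 were called higher. Much of the Sertoli sum was Clu (222378 ± 56147 in the controls, 285767 ± 26179 in the cKO), which was not called (adjusted p = 0.217) and whose groups overlapped. In bulk testis, fewer cells of a type and less RNA per cell cannot be told apart.

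Most respiratory chain genes were at like levels in cKO and control testes. Of the 96 members tested (Cox8b was too low), 2 were called higher and 8 lower, while over all genes tested 9.63% were called higher, 10.4% lower and 20% in either direction. The groups did not overlap in 9 members with all cKO libraries above and 13 with all below, beside 18.3% and 18.4% of all genes (36.7% in either direction). Among the 73 nuclear subunits, 1 was called higher and 6 lower (9.59%), and the median log2 fold change was -0.05, beside 0.01 over all genes tested. Their fold changes ran from -0.57 to 0.30 on the log2 scale, 47 were below 0 and 26 above. The nuclear subunits ran from 273 normalised reads per kb of transcript (Ndufb2) to 19608 (Cox6a1) in the controls, and their log2 fold change showed a Spearman rho of 0.0652 with the mean value and 0.124 with transcript length across these 73 genes, which share the same 6 libraries.

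**Figure D1:**
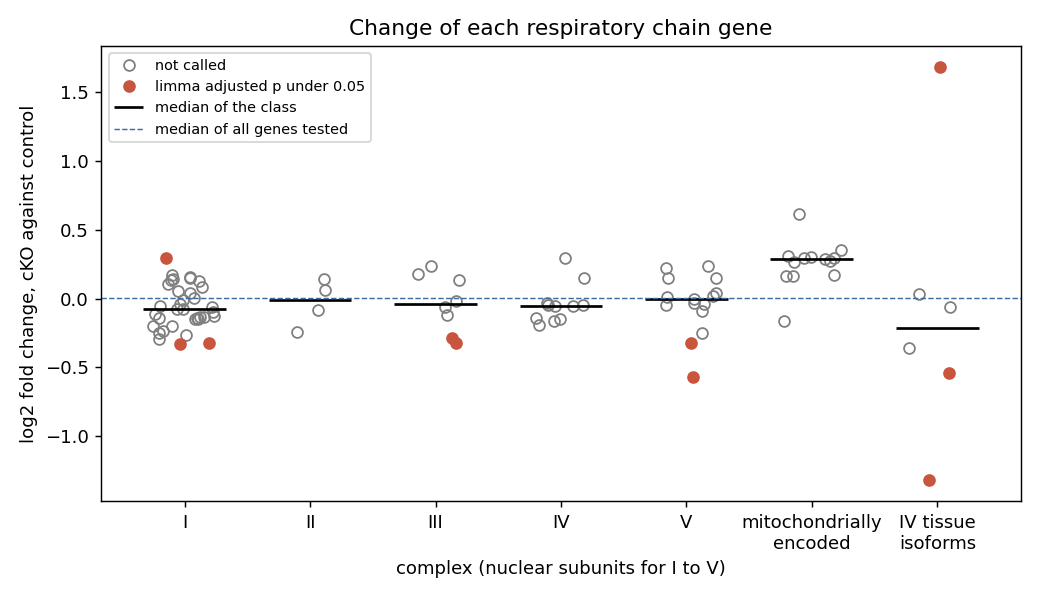
Log2 fold change (cKO against control, 3 libraries each) of every member tested, by class: nuclear subunits of complexes I to V, mitochondrially encoded subunits and complex IV tissue isoforms. Filled points passed the test, short black lines are class medians and the dashed line is the median over all genes tested, 0.01. The nuclear classes lie close to 0, while Cox6a2 (1.69) and Cox8c (-1.32) stand farthest from it.

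The scaling sets how these small differences read. With the 12 Sertoli cell markers held level in place of the deposited size factors, the median of all genes moved to -0.40 and that of the nuclear subunits to -0.47, with 0 called higher and 55 called lower. Calls over all genes rose as well under this scaling (given below), so the 55 include a shift of the whole table. Without limma's intensity trend, 0 nuclear subunits were called in either direction, and 957 genes were called over the whole table. Leaving out single libraries changed the count of nuclear subunits called lower to 10 without control 1, 3 without control 2, 4 without control 3 and 1 without either cKO 1 or cKO 2, and the count called higher to 0 without cKO 1, cKO 2 or cKO 3. At an unadjusted p under 0.05, 17 of the 73 passed. The share of all genes passing at that p is not given here, so this count cannot be read as an excess.

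Complex I, the NADH dehydrogenase and the largest of the complexes, had 35 nuclear members, of which 2 were called lower and 1 higher (median log2 fold change -0.08, range -0.33 to 0.30). Ndufa2, an accessory subunit of the arm that takes up NADH, read 2656, 3503 and 3070 in the controls and 2480, 2203 and 2644 in the cKO. All cKO values lay below all control values, by a narrow gap. Its log2 fold change was -0.33 (SE 0.107, adjusted p = 0.035), a call lost without control 2 (0.157), control 3 (0.0645), cKO 1 (0.0795) or cKO 2 (0.177). Ndufs1 (chr1:63143596-63176833, minus strand), the core subunit that carries iron-sulphur clusters in the same arm, read 2170, 1613 and 1616 in the controls and 1492, 1439 and 1341 in the cKO. Control 1 stood well above the rest, and the groups did not overlap. Its log2 fold change of -0.32 (SE 0.114, adjusted p = 0.0488) sat at the threshold, with an adjusted p of 0.222 without control 1 (log2 fold change -0.18), 0.0786 without cKO 1, 0.0999 without cKO 2 and 0.163 without cKO 3. The call was also lost with a pseudocount of 0.5 (0.0516) and with no filter on low counts (0.0505).

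Ndufv3 (chr17:31520115-31531331, plus strand), an accessory subunit beside the flavoprotein of complex I, was the 1 nuclear subunit called higher. It read 1368, 1696 and 1557 in the controls and 1902, 1800 and 1958 in the cKO, so that all cKO libraries lay above all controls. The log2 fold change was 0.30 (SE 0.102, adjusted p = 0.0439), and under Sertoli marker scaling the sign turned (-0.12, adjusted p = 0.454). Scaling by library totals also ended the call (adjusted p = 0.184), as did the replicate block (0.054) and leaving out control 1 (0.137), control 3 (0.0618), cKO 1 (0.122), cKO 2 (0.0778) or cKO 3 (0.147). Of the 7 core subunits encoded in the nucleus, which carry the flavin and the iron-sulphur clusters, only Ndufs1 was called (median -0.08, range -0.32 to 0.04). Ndufb9, an accessory subunit of the membrane arm and the nuclear complex I member with the highest mean value, stood at 7030 ± 875 and 6418 ± 478 (log2 fold change -0.13, adjusted p = 0.413).

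Complex II, succinate dehydrogenase, works in both the respiratory chain and the tricarboxylic acid cycle and has only nuclear subunits. None of its 4 members was called (1 at an unadjusted p under 0.05). Sdha, the flavoprotein, read 6591, 5931 and 5273 in the controls and 5269, 6036 and 5461 in the cKO, and the groups overlapped (log2 fold change -0.08, adjusted p = 0.604). Sdhb, the iron-sulphur subunit, had all cKO libraries (2494 to 2710) below all controls (2935 to 3328), and missed the threshold (-0.25, adjusted p = 0.0657). Sdhd, a membrane anchor, had all cKO libraries above all controls at 4179 ± 194 against 3785 ± 98.2 (0.14, adjusted p = 0.277).

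Complex III, the cytochrome c reductase, had 2 of 8 nuclear members called lower and none higher, both small subunits. Uqcrh (chr4:116066965-116075071, minus strand), the acidic hinge protein next to cytochrome c1 and the nuclear complex III member with the highest mean value, read 5317, 6402 and 5746 in the controls and 4998, 4509 and 4784 in the cKO. Uqcr11 (chr10:80402997-80406830, minus strand), a small membrane subunit, read 3327, 3899 and 4144 against 3093, 2734 and 3227. In both genes cKO 2 was the lowest library and the groups did not overlap. The log2 fold change was -0.29 for Uqcrh (SE 0.0947, adjusted p = 0.0374) and -0.33 for Uqcr11 (SE 0.101, adjusted p = 0.0276). Both calls were lost without control 2, control 3, cKO 1 or cKO 2, with adjusted p up to 0.168 for Uqcrh and 0.16 for Uqcr11, and that of Uqcrh also without cKO 3 (0.103) and with the replicate block (0.0579). A processed pseudogene, Gm16418, is near-identical to 38.4% of the Uqcr11 transcript, so reads could be split between them. The 2 large core proteins were at -0.12 (Uqcrc1) and -0.01 (Uqcrc2), and Uqcrfs1, the Rieske iron-sulphur protein that hands electrons on, was at 0.24 (adjusted p = 0.0774).

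Complex V, the ATP synthase, had 2 of 15 nuclear members called lower and none higher. Atp5k (chr5:108433244-108434448, minus strand) encodes subunit e, a small membrane subunit at the interface of synthase dimers. It read 1797, 1988 and 1736 in the controls and 1275, 944 and 1575 in the cKO, with cKO 2 far below the rest and no overlap. The mean fell from 1840 ± 132 to 1265 ± 316, or 68.7% of control (log2 fold change -0.57, SE 0.135, adjusted p = 0.0056), the largest change among the 73 nuclear subunits, and the call held under 17 of 18 alternatives and was lost without limma's trend (0.126). Without cKO 2 the log2 fold change was -0.37 (adjusted p = 0.0489). Atp5f1 (chr3:105942698-105960099, minus strand), subunit b of the stalk that holds the catalytic head, read 8837, 8088 and 8285 against 6524, 6665 and 6909. All cKO libraries were lower, the spread within each group was small, and the log2 fold change was -0.33 (SE 0.0897, adjusted p = 0.0139), lost without cKO 1 (0.0778) or cKO 2 (0.0643). Pseudogenes such as Gm12231 are near-identical to 64.6% of the Atp5f1 transcript, so its value is uncertain.

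The catalytic F1 head of the ATP synthase had no called gene among 5 (median -0.03, range -0.25 to 0.22). Atp5b, its catalytic beta subunit and the nuclear member with the highest mean value of all, read 26330, 25902 and 23178 in the controls and 25560, 26860 and 23479 in the cKO. The groups overlapped (0.01, adjusted p = 0.964), although the gene was lower under Sertoli marker scaling (-0.41, adjusted p = 0.0072), close to the median of all genes under that scaling. The 3 genes for the rotating c-ring were not called and lay at 0.02 to 0.24. Atp5g3, one of these, had all cKO libraries (5987 to 6247) above all controls (4755 to 5495) and missed the threshold (adjusted p = 0.0717).

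**Figure D2:**
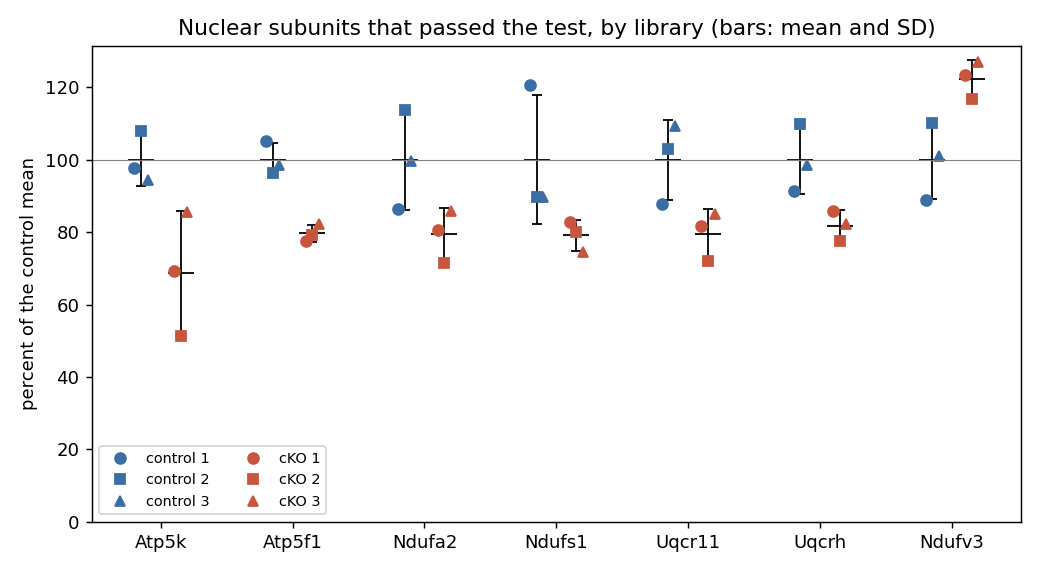
Normalised read count of the 7 nuclear subunits that passed the test, as percent of the control mean, for each of the 6 libraries, with black bars for mean and SD. Atp5k has the lowest cKO mean (68.7% of control) and the widest cKO spread, the other lower genes lie near 80%, and Ndufv3 lies above 100 under the deposited size factors and below it under Sertoli marker scaling.

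None of the 11 widespread nuclear subunits of complex IV, cytochrome c oxidase, was called, and 1 had an unadjusted p under 0.05. That gene was Cox8a, a small membrane subunit, which read 5517, 6496 and 7415 in the controls and 8311, 7817 and 7526 in the cKO. All cKO libraries lay above all controls by a small margin (log2 fold change 0.29, SE 0.104, adjusted p = 0.0517), and without control 3 the gene was called (0.40, adjusted p = 0.0117). Cox4i1, a membrane-spanning subunit and the nuclear one with the highest mean in this complex, stood at 13502 ± 1687 and 12176 ± 327 (-0.14, adjusted p = 0.359).

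Of the 6 complex IV tissue isoforms tested 1 was called higher and 2 lower, and Cox6a2 and Cox8c had the largest fold changes of all members. Cox6a2 (chr7:128205435-128206387, minus strand), the striated muscle form of subunit 6a, read 25.1, 28.3 and 24.0 in the controls and 111, 77.1 and 77.5 in the cKO. Every cKO library was far above every control, with cKO 1 the highest. The mean rose from 25.8 ± 2.24 to 88.7 ± 19.7, or 344% of control (log2 fold change 1.69, SE 0.299, adjusted p = 0.000528), and the call held under all 18 alternatives run (1.29 to 1.78). Against its widespread partner Cox6a1 (8608, 13770 and 11211 in the controls, 10496, 9566 and 9716 in the cKO, adjusted p = 0.441), Cox6a2 made up 0.245%, 0.172% and 0.179% of the pair per transcript length in the controls and 0.883%, 0.672% and 0.666% in the cKO. It thus stayed under 1% of the pair in every library.

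Of 18 other striated muscle genes listed, 17 were in the table and 14 were tested, of which none was called higher and 1, Actn3, lower (-0.77, adjusted p = 0.00503). The list summed to 1641, 1926 and 2076 in the controls and 1545, 1639 and 1604 in the cKO. The defining muscle genes Ckm (4.85 to 22.9) and Mb (4.35 to 14.8) were low in all libraries and were not tested. The whole Cox6a2 gene lies within the span of Itgad (chr7:128154376-128223816), a gene for an integrin subunit on the opposite strand. The last 10.3% of the Cox6a2 transcript matches Itgad transcripts, and the strand setting of the counting is not given. Itgad read 17.8, 29.4 and 18.5 in the controls and 15.8, 42.6 and 43.6 in the cKO. It was thus above every control in cKO 2 and cKO 3 and below every control in cKO 1, and the part of Itgad reads in the Cox6a2 values was not tested.

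Cox8c (chr12:102899316-102900526, plus strand), the form of subunit 8 known from testis, read 91.7, 107 and 131 in the controls and 49.5, 41.8 and 36.3 in the cKO. All cKO libraries were below all controls with a wide gap. The mean fell from 109.7 ± 19.7 to 42.5 ± 6.61, or 38.8% of control (log2 fold change -1.32, SE 0.263, adjusted p = 0.00146), and the call held under all 18 alternatives run (-1.72 to -1.19). Its partner Cox8a lay at 0.29 without passing the test, and Cox8c made up 1.96%, 1.93% and 2.07% of the pair per length in the controls and 0.710%, 0.637% and 0.577% in the cKO.

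Cox7b2 (chr5:71442824-71548205, minus strand), the testis form of subunit 7b, read 347, 261 and 298 in the controls and 196, 190 and 233 in the cKO, again without overlap. The log2 fold change was -0.54 (SE 0.166, adjusted p = 0.0258). The call was lost without control 1 (0.109), cKO 1 (0.0812) or cKO 2 (0.0928) and without limma's trend (0.0763). Its share of the pair with Cox7b per length came to 28.2%, 21.7% and 21.4% in control libraries and 15.1%, 16.5% and 16.6% in cKO libraries, so it was the least rare of the called isoforms. The summed germ cell markers given above were lower in the same cKO libraries, and their part in the values of Cox8c and Cox7b2 was not tested.

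Not every testis isoform was lower. Cox6b2, the testis form of subunit 6b, read 450, 446 and 493 in the controls and 435, 433 and 463 in the cKO, with overlapping groups (log2 fold change -0.06, adjusted p = 0.788), while its widespread partner Cox6b1 stood at 4449 ± 202 and 3904 ± 313 (-0.19, adjusted p = 0.154). Per length, Cox6b2 was 10.4% ± 0.676 of the pair in the controls and 11.3% ± 0.502 in the cKO. Cox7a1, the second muscle isoform, read 334, 476 and 445 against 295, 294 and 383, so that cKO 3 lay among the controls (-0.36, adjusted p = 0.118), and without control 1 it was called lower (-0.51, adjusted p = 0.0329). Its partner Cox7a2 was at -0.05 (adjusted p = 0.766). Cox4i2, the form of subunit 4 known from lung and low oxygen, read 44.4, 78.4 and 54.5 against 70.9, 49.8 and 58.2 (0.04, adjusted p = 0.949). Cox8b, the muscle form of subunit 8, was between 0 and 10.9 in the controls and between 0 and 1.61 in the cKO.

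**Figure D3:**
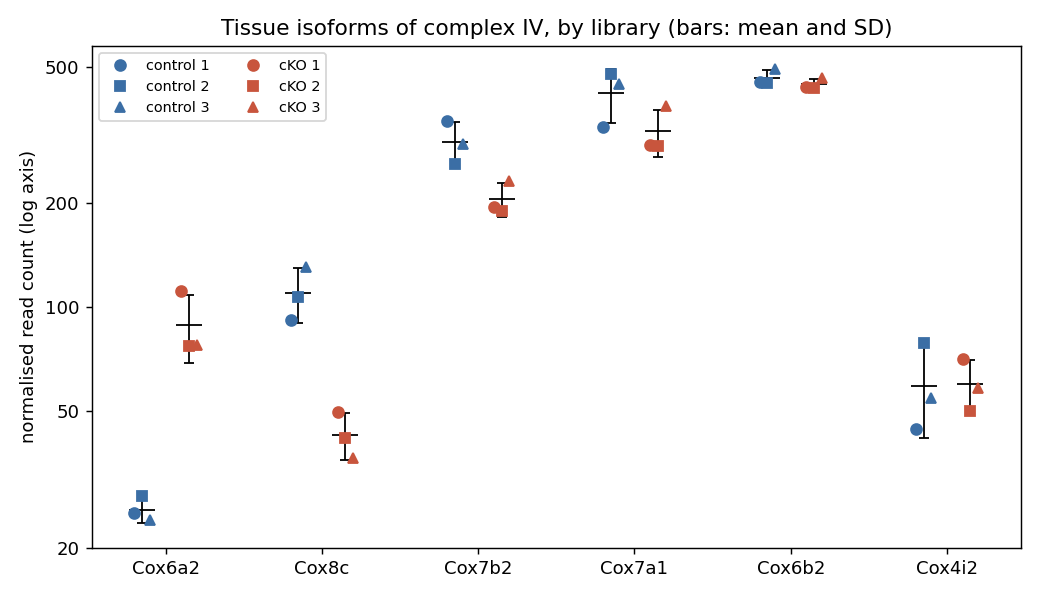
Normalised read count (log axis) of 6 complex IV tissue isoforms in each of the 6 libraries, with black bars for mean and SD. Cox6a2 is higher in every cKO library (77.1 to 111 against 24.0 to 28.3), Cox8c and Cox7b2 are lower in every cKO library, and the groups overlap for Cox7a1, Cox6b2 and Cox4i2.

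The 4 related genes were not called: Ndufa4l2, a homologue of Ndufa4 (-0.26, adjusted p = 0.364), Atp5sl (-0.10), Cox7a2l, a factor that joins complexes III and IV into supercomplexes (0.09), and Atp5s (0.13). In all 4 the groups overlapped.

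None of the 13 mitochondrially encoded subunits was called by limma, and none had an unadjusted p under 0.05. edgeR and DESeq2 on the recovered reads also called 0. All groups overlapped, 12 of the 13 had a log2 fold change above 0, and the median was 0.29, which became -0.13 under Sertoli marker scaling. mt-Co1, the catalytic subunit of complex IV and the gene with the most reads, read 1145583, 930302 and 1951677 in the controls and 1704516, 1353638 and 1660657 in the cKO (0.29, adjusted p = 0.637). The controls spanned the whole cKO range: control 3 was the highest library for 12 of the 13 genes and control 2 the lowest for 10.

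In the other complexes, too, the controls held both the highest and the lowest library for the most abundant genes. mt-Cytb, the haem protein at the centre of complex III, read 326935, 222150 and 554969 against 435246, 350652 and 459881 (0.27, adjusted p = 0.546). mt-Nd5, a proton-pumping subunit of complex I, read 207217, 131017 and 333242 against 288765, 223436 and 290375 (0.35, adjusted p = 0.369). The other abundant subunits, mt-Nd1, mt-Nd2, mt-Nd4 and mt-Nd6, all of the membrane arm of complex I, had log2 fold changes of 0.30, 0.31, 0.30 and 0.29. The spread between controls was thus larger than the difference between the groups. Without control 3, 7 genes were called higher (mt-Atp6, mt-Co2, mt-Co3, mt-Nd2, mt-Nd4, mt-Nd5 and mt-Nd6) and the median was 0.61. Without control 2 the median was -0.03 and none was called.

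Levels per length divided the mitochondrial genes into a high and a low class. The 7 genes mt-Co1, mt-Cytb, mt-Nd1, mt-Nd5, mt-Nd6, mt-Nd2 and mt-Nd4 stood between 75579 and 868945 normalised reads per kb in the controls. The other 6 stood between 72.9 and 1324: mt-Co3 at 1324, mt-Co2 at 1032, mt-Atp6 at 645, mt-Nd3 at 79.9, mt-Atp8 at 74.0 and mt-Nd4l at 72.9. They lie side by side in the mitochondrial genome, from mt-Co2 (position 7013) to mt-Nd4l (position 10173).

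The genes of the low class are those with a near-complete copy in the nuclear block described above, with mt-Atp8 as the exception. Matches of at least 98% identity to annotated copies covered 99.6% of mt-Co2 (Gm28661), 99.6% of mt-Atp6 (Gm10925), 99.9% of mt-Co3 (Gm28437), 99.1% of mt-Nd3 (Gm28438) and 99.0% of mt-Nd4l (Gm10222). mt-Nd4 was covered to 63.6% and mt-Co1 to 31.3%, and the remaining 6 genes had no annotated copy that matched over at least 50 bases. The end of mt-Atp8 (positions 7927 to 7969) overlaps the start of mt-Atp6, which Gm10925 matches, but this stretch is shorter than 50 bases. For the rest of mt-Atp8 no such match was found. Between Gm10925 and Gm28661, the copies of its neighbours, lie 233 bases, and their sequence was not analysed here. The copies themselves were listed with reads: Gm28661 stood at 1699 normalised reads per kb in the controls and Gm28438 at 1682, beside 1032 for mt-Co2 and 79.9 for mt-Nd3.

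Values of the low class are given here by library, with copies for comparison. Gm28438 read 497, 431 and 812 in the controls and 976, 798 and 912 in the cKO, while mt-Nd3, a subunit of complex I, read 33.3, 6.53 and 43.6 against 39.4, 23.3 and 44.8 (0.61, adjusted p = 0.427). Among the controls, library 3 was the highest and library 2 the lowest for this pair, while over all 6 libraries cKO 1 was the highest for Gm28438 and cKO 3 for mt-Nd3. Of the other copies, Gm28439, Gm10222, Gm28437 and Gm10925 kept this order of the controls. In Gm28661 and Gm29216 control 1 was the lowest and control 3 the highest of the controls. Gm28661, the copy of mt-Co2, read 825, 975 and 1670 in the controls and 1307, 1034 and 1563 in the cKO. mt-Co2, which carries the copper site that receives electrons from cytochrome c, read 552, 556 and 1010 against 825, 618 and 854 (0.16, adjusted p = 0.567). mt-Co3, the third core subunit of complex IV, read 824, 787 and 1504 against 1156, 948 and 1260 (0.17, adjusted p = 0.541). The proton channel subunit of the ATP synthase, mt-Atp6, read 415, 294 and 609 against 529, 407 and 609 (0.27, adjusted p = 0.357). mt-Atp8, its small partner, read 14.8, 6.53 and 24.0 against 11.3, 6.42 and 21.8 (-0.16, adjusted p = 0.876), and mt-Nd4l, of complex I, read 14.8, 16.3 and 33.8 against 19.1, 20.1 and 31.5 (0.17, adjusted p = 0.831). Because reads of these 5 copied genes cannot be assigned with certainty, their levels are uncertain, and the part of the copies in the low class was not tested.

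**Figure D4:**
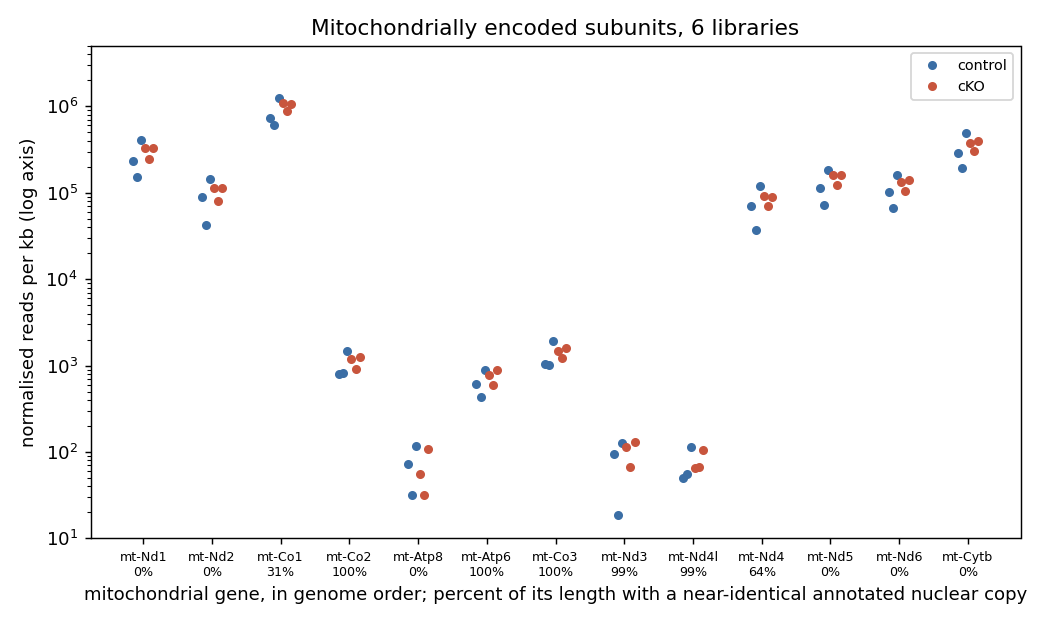
Normalised reads per kb (log axis) of the 13 mitochondrially encoded subunits in 3 control and 3 cKO libraries, in the order of the mitochondrial genome. Percentages give the part of each gene's length that matches an annotated nuclear copy in stretches of at least 50 bases. The 6 genes from mt-Co2 to mt-Nd4l lie at 72.9 to 1324 in the controls and the other 7 at 75579 and above, and control and cKO points overlap for every gene.

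Summed over genes, the nuclear subunits varied little between libraries and the mitochondrial ones varied much. The 73 nuclear subunits summed to 294369, 326136 and 311703 normalised reads in the controls and 305949, 297111 and 301541 in the cKO. The 13 mitochondrial subunits summed to 2147698, 1561088 and 3628132 against 3064557, 2396724 and 3046329. Much of this sum was mt-Co1: without it the mean sum was 1103119 in the controls and 1262933 in the cKO, beside 2445639 and 2835870 with it. Under the deposited size factors, all cKO sums lay within the range of the controls for the nuclear and for the mitochondrial subunits. Divided by the nuclear sum, the mitochondrial sum came to 7.30, 4.79 and 11.6 in control libraries 1 to 3 and 10.02, 8.07 and 10.1 in cKO libraries 1 to 3, and the ratio of the group means (9.40 ± 1.15 over 7.91 ± 3.47) was 1.19. This rose to 1.56 without control 3 and was 0.992 without control 2. Of all reads, mitochondrial members took 6.0%, 4.26% and 9.40% in the controls and 7.71%, 6.22% and 7.72% in the cKO, and nuclear members 0.822%, 0.891% and 0.808% against 0.769%, 0.770% and 0.764%. By this share of reads, unlike the sums, the nuclear members were lower in every cKO library than in every control. Dividing by total reads rescales all genes of a library together, so part of this difference is a shift of the whole table.

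Other lists of genes that build or feed the chain were read in the same way. The counts of each list stand beside 10.4% of all genes called lower and 9.63% called higher. Assembly factors, which fold, join and load the complexes with metals and haem, had 5 of 47 called lower and 1 higher (median -0.08). Ecsit, which acts in complex I assembly and in innate immune signalling, read 1255, 1200 and 1273 in the controls and 765, 720 and 625 in the cKO. The groups were far apart (log2 fold change -0.82, SE 0.11, adjusted p = 2.68e-05). Cox17 (-0.68, adjusted p = 0.0499) and Cox11 (-0.56, adjusted p = 0.0046), both of which serve copper delivery to complex IV, were lower, as were Uqcc2 and Atpaf2. Coa5, a complex IV assembly factor, was higher (8551 ± 640 to 10873 ± 454, 0.35, adjusted p = 0.0128), and stood at -0.066 under Sertoli marker scaling. Ecsit and Cox11 kept their calls without any single library, whereas that of Cox17 was lost without control 1, control 3, cKO 1 or cKO 2 (log2 fold change -0.42 without cKO 2) and with edgeR (0.0571). The count called lower was 3 without control 3, cKO 1 or cKO 2, and the count called higher was 0 without cKO 1 or cKO 3.

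Among 20 genes listed for the mobile carriers and coenzyme Q synthesis, 5 were called lower and 1 higher (median -0.08), and the pair of cytochrome c genes differed in sign. The list also holds Ndufab1, a complex I subunit that the selection by name did not take (-0.17, adjusted p = 0.203). Cyct, the testis form of cytochrome c, read 341, 324 and 307 in the controls and 181, 233 and 236 in the cKO. Cycs, the somatic form, read 8971, 8877 and 9536 against 11823, 11592 and 11984. Neither pair of groups overlapped, with Cyct lower (-0.59, SE 0.16, adjusted p = 0.0134) and Cycs higher (0.37, SE 0.0911, adjusted p = 0.00697), and Cycs stood at -0.044 under Sertoli marker scaling. Pdss1, which makes the side chain of coenzyme Q (-0.75, adjusted p = 0.00251), and Coq5, a methyltransferase of its ring (-0.46, adjusted p = 0.00555), were lower, with Coq3 and Coq7. Pdss1, Coq5 and Cycs kept their calls without any single library, and that of Cyct was lost without cKO 1 (0.0824). The count called lower was 3 without cKO 1.

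Genes for mitochondrial DNA transcription and upkeep had 4 of 33 called lower and none higher (median -0.09), beside 10.4% and 9.63% of all genes. These were Rnaseh1, which removes RNA from RNA-DNA hybrids (-0.41, adjusted p = 0.0268), Elac2, which trims tRNA ends (-0.38, adjusted p = 0.0199), Polrmt, the mitochondrial RNA polymerase (1027, 1211 and 1203 in the controls, 932, 916 and 858 in the cKO, -0.34, adjusted p = 0.0296), and Peo1, the mitochondrial helicase (-0.31, adjusted p = 0.0466). These calls changed when single libraries were left out. The count called lower was 1 without control 1, control 2, cKO 2 or cKO 3 and 0 without cKO 1. Without control 3 it was 3, with 1 gene called higher. Fewer libraries also weaken the test, and calls over all genes fell too without cKO 1 or cKO 3. The count called lower was also 0 without limma's trend.

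Of 20 genes of the tricarboxylic acid cycle, which supplies the NADH and succinate, 2 were called higher and 1 lower (median -0.05). Pcx, pyruvate carboxylase, which refills the cycle, read 2117, 2132 and 1904 in the controls and 1237, 1256 and 1232 in the cKO. This is 60.5% of control with a clear gap (-0.72, SE 0.096, adjusted p = 2.52e-05). Idh2, which makes NADPH in mitochondria (0.45, adjusted p = 0.00228), and Dlat, a subunit of pyruvate dehydrogenase (0.33, adjusted p = 0.0202), were higher, but under Sertoli marker scaling Idh2 was not called (adjusted p = 0.853) and Dlat stood at -0.079. Pcx and Idh2 kept their calls without any single library, and Dlat kept it only without control 1. The count called higher was 4 without control 1 and 1 without any single one of the other libraries. Of 19 regulators of mitochondrial biogenesis 3 were called lower and none higher (median 0.02): Perm1, known from muscle and low here (31.9 ± 7.54 to 12.2 ± 2.39, -1.25, adjusted p = 0.0438), Sirt1, a deacetylase (-0.36, adjusted p = 0.00836), and Pprc1, a coactivator (-0.33, adjusted p = 0.0221). Sirt1 kept its call without any single library and Perm1 lost it without each. The count was 1 without control 2, cKO 2 or cKO 3. Under Sertoli marker scaling none of these 5 lists had a gene called higher, and the counts called lower were 34, 18, 26, 12 and 11 in the order given. That scaling lowered genes across the whole table, and this shift is part of these counts.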

How the data were processed

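The authors deposited 1 table with 1 column of values per library. The deposited signal was made of whole read counts divided by 1 size factor per library: 100% of values were whole multiples of 1 step (tolerance 1e-06), and 78.1% of recovered counts from 1 to 20 were even. StringTie 1.3.1 and RSEM are named per the submitters' processing notes, with no role. For the aligner, build, annotation and strand setting, the entry is: not given in the sources used here. Groups came from the sample titles.

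Genes were filtered with filterByExpr (minimum count 10) and tested with limma 3.58.1 (intensity trend, log2(value + 2), 2-sided, R 4.3.3). Fold changes on this scale understate the change of low genes. edgeR 4.0.16 and DESeq2 1.42.0 on the recovered reads, other scalings, pseudocounts and filters, the replicate block and leaving out each library were alternatives. In a simulation of the 17570 genes tested (cKO against control), 61.2% of the genes given a 1.5-fold change and 80.6% of those given a 2-fold change were recovered by limma, with 4.88% false calls. It changed 67 genes at each of these folds, a far smaller part than the 20% called in the data, and both rates depend on that part. Changes under 1.5-fold, such as those of the nuclear subunits, were not simulated.

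Levels per kb used GENCODE M21 transcript lengths (GRCm38), which also gave coordinates, by symbol. Near-identical copies were transcripts of other genes with at least 98% identity over at least 50 bases. Of 142 listed pathway genes 139 were in the table, 5 of them under a synonym, and of 57 cell type markers 56 were. Adipocyte markers (0 called) and erythroid markers (2 called higher) were also read. The named genes are every member called, the tissue isoforms with their partners, all mitochondrial members, the highest gene of each nuclear complex and, of each other list, up to 3 called genes a direction. Other members named (those at the threshold, whose groups did not overlap, or with a stated role) and the remaining called genes of the lists were chosen after their values were seen. The members and lists were chosen with earlier results of these data known.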

Additional observations from a re-analysis of the deposited data

How the results depend on the processing

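Cox6a2 and Cox8c kept their direction and their call under all 18 alternatives run. The count of nuclear subunits called higher (1 as reported) was 2 with a pseudocount of 8 or a mean count of at least 50, 4 with DESeq2, and 0 with library totals, totals without mitochondrial genes, Sertoli marker scaling, limma without trend or the replicate block, and 0 to 1 when single libraries were left out. The count called lower (6) was 12 with library totals, with or without mitochondrial genes, 55 with Sertoli marker scaling, 0 without trend, and 1 to 10 when single libraries were left out. The median of the nuclear subunits (-0.05) was -0.14 with library totals, -0.13 with totals without mitochondrial genes and -0.47 with Sertoli marker scaling, under which the median of all genes was -0.40, and it ranged from -0.07 to -0.02 when single libraries were left out. Library totals rescale all genes of a library together, so the 12 called lower include a shift of the whole table, whose median under them is not given here. The count of mitochondrial subunits called higher was 0 to 7 and the ratio of the mitochondrial to the nuclear sum 0.992 to 1.56 when single libraries were left out. Sertoli marker scaling turned the sign of Ndufv3 (-0.12), Atp5b (-0.41), Coa5 (-0.066), Cycs (-0.044) and Dlat (-0.079). This scaling changes only the factor of each library, so these genes moved down together with the median of all genes (0.01 to -0.40). Why this scaling and the deposited size factors differ was not tested. Over all genes, 3521 were called, 8064 with Sertoli marker scaling, 957 without trend, 2254 without cKO 1 and 2216 without cKO 3. Replicate numbers in the titles did not pair the samples: deviations of same-numbered libraries correlated at -0.04, -0.002 and 0.06, and the replicate block gave 5 nuclear subunits called lower and 3306 genes in all. Genes near 10 reads, such as mt-Atp8 and Cox8b, are limited by counting error.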

Other observations

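Ndufb2, an accessory subunit of complex I, stood far below the other nuclear subunits, at 149, 92.5 and 131 in the controls and 79.9, 122 and 141 in the cKO. At 273 normalised reads per kb it had the lowest control level of the 73, while 50.8% of its transcript matched transcripts of other annotated genes, Gm42420 with the longest match. In 11 of the 73 nuclear subunits such matches covered over 50% of the transcript, among them all of Atp5g2 (Gm10175) and 84.1% of Ndufs3 (Gm12251), and the level of these genes per length is uncertain.

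Single libraries recurred at the ends of the range. Control 2 was the highest library for 28 of the 73 nuclear subunits and the lowest for 10 of the 13 mitochondrial ones. Control 1 was the lowest for 26 nuclear subunits and cKO 2 for 21.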
